A study of Homo sapiens with 4 samples.

Results

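The miR-23, miR-27 and miR-24 clusters were followed in U2OS, an established human osteosarcoma line, by quantitative PCR of mature miRNAs. The assays were chosen by name, as hsa-miR-23a, hsa-miR-23b, hsa-miR-24, hsa-miR-27a and hsa-miR-27b with any numbered copy or * arm (such as hsa-miR-23b*), and 10 of the 737 different miRNA assays matched. The species prefix is left out below. An asterisk marks the opposite arm of a hairpin, the strand that was named as the minor one. The 10 assays are 5 main arms and 5 opposite arms, and an assay for the opposite arm of miR-27a was not analysed here. The 4 samples form 2 pairs that share no sample. In the first pair, cells infected with lentivirus carrying a short hairpin RNA against DDX1 (shDDX1) were set against cells infected with a control hairpin (shNS), and both had been selected with puromycin at 2 µg/ml. In the second, cells given neocarzinostatin (NCS), an enediyne that makes DNA double-strand breaks, for 6 h at 500 ng/ml were set against untreated cells. Each group is 1 sample of 1 line, the hairpin sequences and the extent of DDX1 knockdown are not analysed here, and no difference below has a replicate check or a p-value.

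The 2 clusters are paralogs, each a run of 3 hairpins cut by Drosha from one primary transcript and then by Dicer into a duplex of opposing arms. A miRNA finds its targets mainly through its seed, bases 2 to 8, so paralogs with one seed can address the same messages. The clusters are widely expressed and are known for roles in bone, muscle, heart and vessel cells: miR-23a represses the osteoblast factor RUNX2, miR-27 acts against fat cell differentiation through PPARG, and miR-24 lowers the histone H2AX and so bears on the repair of double-strand breaks. DDX1 is a DEAD-box RNA helicase, and the comparison of shDDX1 with shNS asks which miRNAs depend on it. The NCS comparison asks which miRNAs move after DNA breaks.

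The RefSeq entries were matched for all 10 assays on GRCh38.p14. On chromosome 19, minus strand, MIR23A, MIR27A and MIR24-2 lie in this order within 373 bases, 13836287 to 13836659, inside the span of the non-coding host gene MIR23AHG. On chromosome 9, plus strand, MIR23B, MIR27B and MIR24-1 lie within 881 bases, 95085208 to 95086088, inside the span of the protein-coding gene AOPEP, and the hairpin MIR3074 overlaps MIR24-1. Whether these positions are exonic or intronic was not given in the tables used. The main arms are shown first because the comparison of paralogs rests on how little they differ. Capitals mark the seed.
miR-23a: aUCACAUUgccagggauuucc
miR-23b: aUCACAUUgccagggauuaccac
miR-27a: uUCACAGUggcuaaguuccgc
miR-27b: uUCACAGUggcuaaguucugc
miR-24: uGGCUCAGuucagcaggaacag
miR-23a and miR-23b share a seed and match at 20 of 21 aligned bases, differing by U19A (base of miR-23a, position from the 5′ end, base of miR-23b), and miR-23b is 2 bases longer. miR-27a and miR-27b also match at 20 of 21, differing by C19U. Detection of one paralog by the other's assay was not tested. The mature miR-24 is the same in MIR24-1 and MIR24-2, so its assay sums both clusters.

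The opposite arms separate the clusters more clearly, since here the paralogs differ at several bases and each copy of miR-24 has an arm of its own.
miR-23a*: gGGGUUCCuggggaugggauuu
miR-23b*: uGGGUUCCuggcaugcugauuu
miR-24-2*: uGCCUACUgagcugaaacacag
miR-24-1*: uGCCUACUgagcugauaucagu
miR-27b*: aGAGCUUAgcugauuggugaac
miR-23a* and miR-23b* share a seed and 15 of 22 bases, and miR-24-2* and miR-24-1* share a seed and 16 of 22. The 10 assays fall into 6 seeds, of which 4 are shared by a paralog pair. No further assay on the panels had any of these seeds, by RefSeq name. The hairpin of miR-23b is shown because the Ct gap between its arms had the widest range over the samples. Capitals mark the mature arms, miR-23b* first and miR-23b second.
MIR23B: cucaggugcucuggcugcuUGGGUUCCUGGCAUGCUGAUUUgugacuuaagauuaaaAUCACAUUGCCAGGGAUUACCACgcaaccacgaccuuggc

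Each well gave a quantification cycle (Ct), the cycle at which its signal crossed a threshold, so a lower Ct is more RNA and 1 cycle was taken as 1 doubling. Of 740 miRNA wells, Ct under 35 was reached in 723 in shDDX1, 732 in shNS, 591 in NCS-treated and 521 in untreated cells. All 10 assays were under 35 in all 4 samples. The 5 main arms lie on panel I of the plate set and the 5 opposite arms on panel II, so a comparison of arms crosses plates while one of mates or paralogs within an arm class does not. For ratios, each sample was centred by the average Ct of those wells that read under 35 in all 4 samples, and were called higher or lower at 2-fold. Repeated calibrator wells of a plate varied with an SD of 0.191 cycles, pooled over plates, which gives an SD of 0.27 for a log2 ratio and 0.38 for a difference of 2 log2 ratios. From 7 assays found on both panels, a log2 ratio had an SD of 0.385 in shDDX1 over shNS and 0.795 in NCS over untreated, or 0.354 there without miR-423-5p. These SDs cover wells and plates, not cultures. All 8 mesenchymal markers were read in all 4 samples, at Ct 17.2 to 25.01 in shDDX1 and 16.6 to 24.8 in shNS cells, and at 19.7 to 28.5 in NCS-treated and 21.3 to 30.1 in untreated cells. The liver miRNA miR-122 read 30.1 in shDDX1 and 28.6 in shNS cells, and 33.4 in NCS-treated and 32.8 in untreated cells, and the 4 blood markers read no earlier than 26.3, 25.7, 28.3 and 30.5 in the same order. The neuron miRNA miR-9 read 23.5 in shDDX1 and 22.6 in shNS cells, and 25.3 in NCS-treated and 27.5 in untreated cells. In each sample miR-9 was earlier than the latest mesenchymal marker. The other neuron miRNA, miR-124, was later than that marker in each sample, at 28.0, 27.5, 30.4 and 31.3 in the same order. The muscle miRNAs miR-1, miR-133a and miR-206 read no earlier than 28.4 in shDDX1, 27.8 in shNS and 33.2 in NCS-treated cells. In untreated cells miR-1 and miR-206 had no Ct, and miR-133a read later than every mesenchymal marker.

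The main arms were among the most abundant miRNAs of these cells. miR-24 read Ct 18.3 in shDDX1 and 18.3 in shNS cells, and 20.8 in NCS-treated and 21.8 in untreated cells. miR-23a read 18.7 in shDDX1 and 18.3 in shNS cells, and 21.7 in NCS-treated and 22.3 in untreated cells. miR-27a read 19.3 in shDDX1 and 19.2 in shNS cells, and 21.9 in NCS-treated and 22.1 in untreated cells. These 3 lay between rank 5 and rank 18 of all miRNAs by Ct in every sample. The chromosome 9 main arms were later in each sample. miR-27b read 21.1 in shDDX1 and 19.8 in shNS cells, and 23.3 in NCS-treated and 22.8 in untreated cells. miR-23b read 21.2 in shDDX1 and 20.3 in shNS cells, and 23.8 in NCS-treated and 25.4 in untreated cells. The order was miR-24, miR-23a, miR-27a, miR-27b and miR-23b in shDDX1, shNS and NCS-treated cells, while miR-27a came before miR-23a in untreated cells. Neighbours in that order were within the well-to-well SD of a difference, 0.27 cycles, for miR-27b and miR-23b in shDDX1, miR-24 and miR-23a in shNS, and miR-23a and miR-27a in both samples of the NCS pair. A difference in Ct between assays also holds their difference in amplification, so the order is one of readings and not of molecule numbers.

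**Figure D1:**
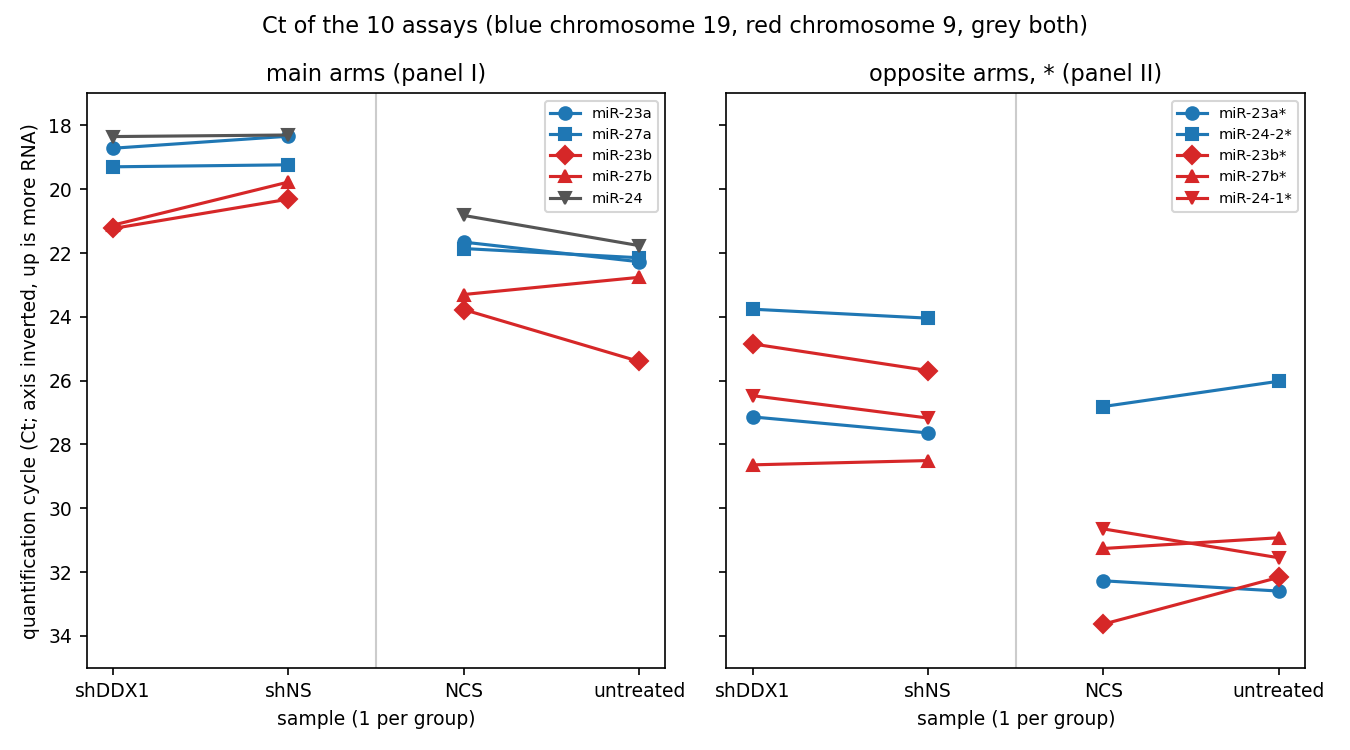
Ct of each assay (vertical axis, inverted so that up is more RNA) in the 4 samples, with the main arms on the left and the opposite arms on the right; points are single samples, lines join a pair, and colour gives the cluster. The main arms sit between Ct 18.3 and 25.4 and the opposite arms between 23.8 and 33.6, and miR-23b* lies second of the opposite arms in shDDX1 and shNS cells but last in NCS-treated cells.

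Among the opposite arms, miR-24-2* was the earliest in all 4 samples. It read Ct 23.8 in shDDX1 and 24.04 in shNS cells, and 26.8 in NCS-treated and 26.0 in untreated cells. Its paralog miR-24-1* read 26.5 in shDDX1 and 27.2 in shNS cells, and 30.6 in NCS-treated and 31.6 in untreated cells. The chromosome 19 copy was thus ahead by 2.71 to 5.53 cycles, although both arms derive from hairpins that give the same miR-24. miR-23a* read 27.1 in shDDX1 and 27.6 in shNS cells, and 32.3 in NCS-treated and 32.6 in untreated cells. miR-27b* read 28.6 in shDDX1 and 28.5 in shNS cells, and 31.3 in NCS-treated and 30.9 in untreated cells. miR-23b* read 24.8 in shDDX1 and 25.7 in shNS cells, but 33.6 in NCS-treated and 32.2 in untreated cells. Within panel II it was 3.79 and 2.82 cycles ahead of its mate miR-27b* in shDDX1 and shNS cells, and 2.37 and 1.24 cycles behind it in NCS-treated and untreated cells, so the order of these mates differed between the pairs. The earliest water well of panel II read 26.5 in shDDX1 and 26.6 in shNS cells. miR-23a* and miR-27b* read later than that well in both samples, and miR-24-1* did in shNS cells. In shDDX1 cells miR-24-1*, at 26.47, was level with that well, at 26.50. No water well gave a Ct in the NCS pair, and the part of such background in these readings was not tested.

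In shDDX1 cells the chromosome 9 main arms were lower than in shNS cells and the chromosome 19 main arms were close to level. miR-27b was 2.07-fold lower, at a log2 ratio of -1.05, and miR-23b was 1.53-fold lower, at -0.62. miR-23a stood at -0.07, miR-27a at 0.24 and miR-24 at 0.26, each within the repeat SD of 0.385. Of the opposite arms, miR-23b* was 2.20-fold and miR-24-1* 2.01-fold higher, the latter from readings level with or later than the earliest water well. miR-23a* stood at 0.81, miR-24-2* at 0.58 and miR-27b* at 0.17. By count, 1 of the 10 was at least 2-fold lower, beside 17.3% of all 716 quantified miRNAs, and 2 were at least 2-fold higher, beside 11%. The median over the 10 was 0.25, beside 0.04 over all. The panels differed as a whole: 29.2% of panel I miRNAs were lower and 2.75% higher, against 5.14% lower and 19.7% higher on panel II, with medians of -0.42 and 0.46. The single lower assay is a panel I assay and the 2 higher ones are panel II assays, so the counts follow the panels.

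Set against their own panels, the members lay on both sides of the middle, with more above it than below. miR-27b was above 28.1% of the 363 quantified panel I miRNAs and miR-23b above 42.7%, while miR-23a was above 67.5%, miR-27a above 83.2% and miR-24 above 84.0%. Of the 350 quantified panel II miRNAs, miR-27b* was above 33.4% and miR-24-2* above 60.0%. miR-23a* was above 70.9% of them, miR-24-1* above 80.3% and miR-23b* above 85.4%. With each panel centred separately miR-27b was at -0.62 and miR-23b at -0.19, miR-23a stood at 0.35 and miR-27a at 0.66. The gap between clusters does not depend on centring, since the 4 assays share a plate: the mean log2 ratio of miR-23a and miR-27a minus that of miR-23b and miR-27b was 0.92. In the authors' deposited fold table miR-27b is at 0.392 and miR-23b at 0.529 of shNS, against 0.957 for miR-27a and 0.770 for miR-23a. miR-24, whose well lies among the middle columns of the plate, was at 1.30 after subtraction of neighbouring wells, and miR-23a at 0.84. Over 11 settings of centring, plate position and starting table, miR-23b and miR-27b stayed below 0 and miR-23b* and miR-24-1* above 0, while the other 6 changed sign. For these assays both deposited tables gave the same ratios as no centring. The settings that centre both panels together differ from these by 1 constant, so the 11 are not separate checks.

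**Figure D2:**
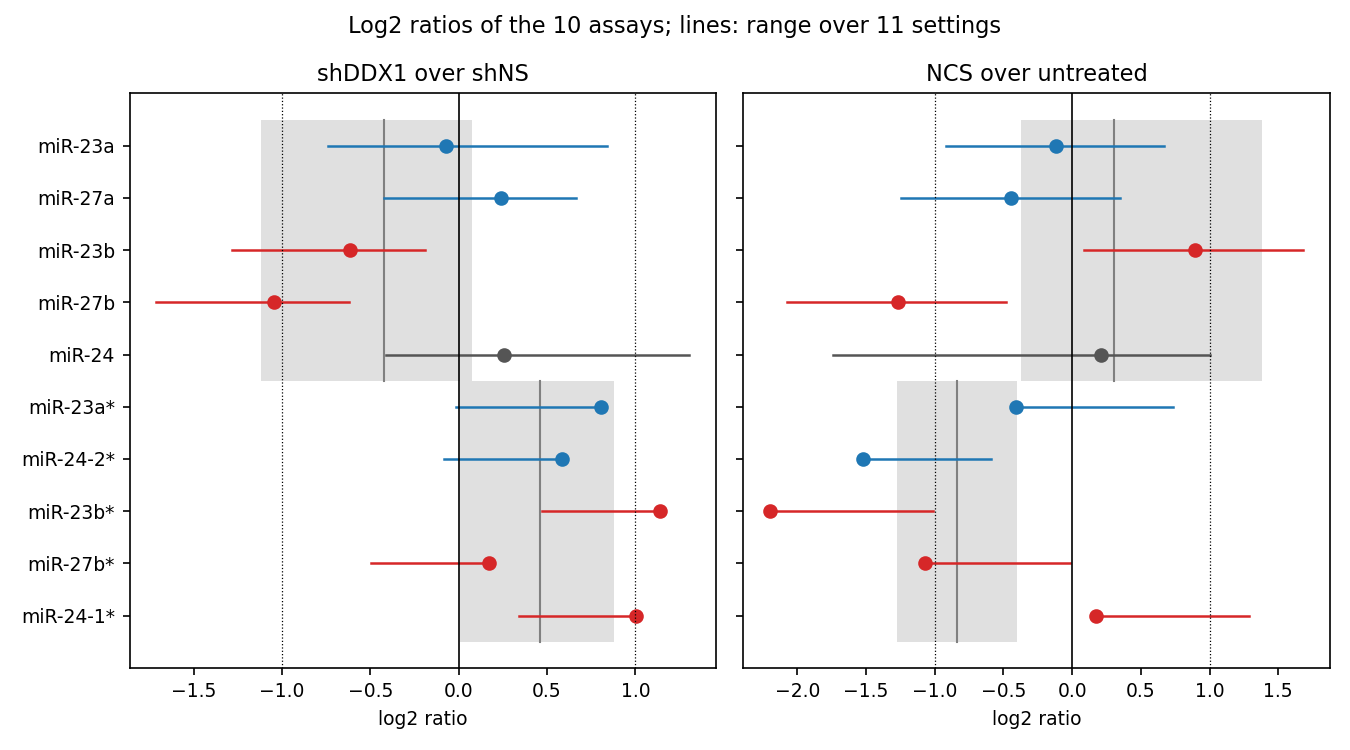
Log2 ratio of each assay in shDDX1 over shNS (left) and NCS over untreated (right); points are the values under the common centring, coloured lines their range over 11 settings, grey boxes the interquartile range of quantified miRNAs of the same panel with their median, and dotted lines mark 2-fold. In the left plot miR-27b and miR-23b lie left of 0 over their whole range. In the right plot miR-23b lies right of 0, at 0.09 at its lowest, and miR-27b and miR-23b* lie left of 0.

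After NCS the chromosome 9 mates had log2 ratios of opposite sign. miR-23b was 1.86-fold higher than in untreated cells, at a log2 ratio of 0.89, whereas miR-27b was 2.41-fold lower, at -1.27. The chromosome 19 mates stood at -0.12 for miR-23a and -0.44 for miR-27a, and miR-24 at 0.21, within the repeat SD of 0.795, though miR-27a lies beyond the 0.354 found without miR-423-5p. miR-23b* was 4.59-fold lower, the farthest of the 10. miR-24-2* was 2.88-fold and miR-27b* 2.10-fold lower, while miR-23a* stood at -0.41 and miR-24-1* at 0.17. By count, 4 of the 10 were at least 2-fold lower, beside 22.3% of all 498 quantified miRNAs, and 0 were at least 2-fold higher, beside 16.9%. The median over the 10 was -0.43, beside -0.38 over all. Of those 4, 3 are opposite arms on panel II, where 40.4% of miRNAs were lower and 3.27% higher, while on panel I, which holds miR-27b, 4.8% were lower and 30.4% higher.

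Against their own panels, miR-27b and miR-23b* lay at the low end. miR-27b was above 3.60% of 250 panel I miRNAs and miR-23b* above 3.27% of 245 panel II miRNAs. At the other side, miR-24-1* was above 90.2% of panel II and miR-23b above 66.4% of panel I. Among panel I miRNAs in the outer columns of the plate, where both wells lie and where the median ratio was -0.15, miR-23b was above 85.4% and miR-27b above 5.11%. miR-24 is the 1 main arm in the middle columns, 7 to 18, where the panel I median was 1.21, and it stood at -1.55 when centred on those columns alone. Over all 11 settings miR-23b and miR-24-1* stayed above 0 and miR-23b*, miR-24-2*, miR-27b and miR-27b* below 0. Some values lay close to 0: miR-27b* was at -0.01 in both deposited tables, and miR-23b at 0.09 with each panel centred. Only miR-23b* was at least 2-fold lower in every setting. Both deposited tables gave the same ratios for these assays, so the settings are not 11 separate checks. These settings keep the limit of Ct 35, and under a limit of 32 miR-23b* was not quantified and had no call. The authors' deposited fold table gives 0.349 for miR-23b*, 0.661 for miR-27b and 2.74 for miR-23b. These folds are not the deposited Ct moved by 1 constant per plate: the difference between the shifts of the NCS-treated and untreated Ct was 0.05 cycles for miR-23b*, 0.06 for miR-27b and 0.17 for miR-23b, but -0.41 for miR-23a*, and no source used here states how it was set.

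The chromosome 9 mates were compared within each sample, where plate and centring cancel. miR-23b read 0.11 cycles later than miR-27b in shDDX1 and 0.54 in shNS cells, and 0.47 later in NCS-treated but 2.64 later in untreated cells. Of the 4 samples it was the untreated one in which these mates stood apart. Against the average Ct of its sample, miR-27b was 7.34 cycles earlier in untreated cells. It was 5.01 earlier in shDDX1, 6.06 in shNS and 6.07 in NCS-treated cells. miR-23b was 4.70 cycles earlier in untreated cells, against 4.90, 5.52 and 5.59 in that order. The wells of miR-23b and miR-27b lie far apart, in plate row D, column 23, and row P, column 22. The chromosome 19 mates miR-23a and miR-27a differed by -0.58 in shDDX1 and -0.90 in shNS cells, and by -0.20 in NCS-treated and 0.12 in untreated cells, a narrower range. As a difference of log2 ratios, miR-23b minus miR-27b was 2.16 after NCS, which is 5.66 times the calibrator SD of such a difference, and 0.43 in the knockdown, or 1.13 times. miR-23a minus miR-27a was 0.33 after NCS and -0.31 in the knockdown, both under 1 calibrator SD. The calibrator SD of a single log2 ratio, 0.27, is narrower than the repeat SD. That repeat SD was 0.795 after NCS, or 0.354 without miR-423-5p, and 0.385 in the knockdown. Mate pairs of other clusters were not compared.

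The paralogs were compared in the same way. miR-23a read earlier than miR-23b by 2.52 cycles in shDDX1 and 1.97 in shNS cells, and by 2.11 in NCS-treated and 3.12 in untreated cells. miR-27a read earlier than miR-27b by 1.83 cycles in shDDX1 and 0.54 in shNS cells, and by 1.44 in NCS-treated and 0.61 in untreated cells. In the knockdown the log2 ratio of miR-27a exceeded that of miR-27b by 1.29, or 3.37 times the calibrator SD, which is narrower than the repeat SD. The ratio of miR-23a exceeded that of miR-23b by 0.54. Of 51 pairs of a and b paralogs on the panels with both quantified, 14 differed by more than the miR-27 pair and 34 by more than the miR-23 pair. After NCS the miR-27 pair differed by 0.83 and the miR-23 pair by -1.01, in opposite directions, and 22 and 16 of 37 pairs differed by more. Those pairs include opposite arms, pairs across panels and the pairs of these clusters. Of 28 other pairs within panel I, 10 differed by at least 1 in the knockdown, with a median absolute difference of 0.79. After NCS 11 of 22 such pairs did, with a median of 1.16. Differences of this size were thus common among paralogs in both comparisons. The opposite arms miR-24-2* and miR-24-1* differed by -0.42 in the knockdown and by -1.70 after NCS, where the chromosome 19 copy had the lower ratio. miR-23a* and miR-23b* differed by -0.33 in the knockdown and by 1.79 after NCS, where the chromosome 19 copy had the higher ratio.

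**Figure D3:**
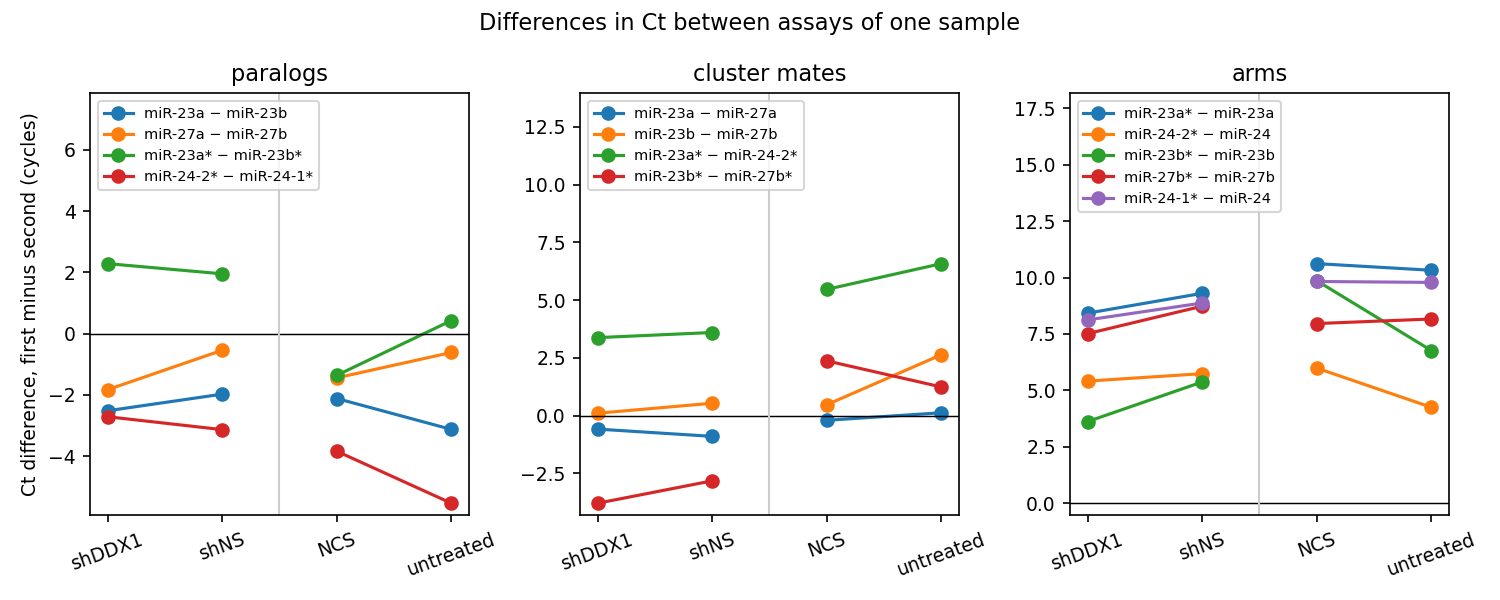
Difference in Ct (cycles) between assays of one sample, for paralogs (chromosome 19 minus chromosome 9), cluster mates and arms (opposite minus main); each point is 1 sample and lines join a pair. The gap between miR-23b and miR-27b is 2.64 in untreated cells against 0.11 to 0.54 elsewhere, and that between miR-23b* and miR-23b runs over the 4 samples between 3.62 and 9.86.

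The opposite arm was the later one in all 5 arm pairs and all 4 samples. The gap was 3.62 cycles in shDDX1 and 5.37 in shNS cells for miR-23b* against miR-23b, and 9.86 in NCS-treated and 6.77 in untreated cells. For miR-27b* against miR-27b it was 7.51 in shDDX1 and 8.73 in shNS cells, and 7.96 in NCS-treated and 8.16 in untreated cells. For miR-23a* against miR-23a it ran from 8.42 to 10.6 over the samples. miR-24-2* trailed miR-24 by 4.25 to 5.99 cycles and miR-24-1* trailed it by 8.12 to 9.82. The arms of miR-23b thus had a wider range of gaps than those of the other 4 pairs.

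Arm differences were then read against every hairpin on the panels with both arms quantified, because opposite arms lie mostly on panel II and main arms on panel I. In the knockdown the log2 ratio of the opposite arm minus that of the main arm was above 0 in 5 of 5 pairs, with a median of 0.88, and in 84 of 107 other hairpins with arms on the same panels as these, with a median of 0.79. For miR-23b it was 1.75, above 82.2% of all 146 pairs on any panels, and for miR-27b 1.22, above 71.9%. After NCS the median was -0.29 in the 5 pairs and -1.32 in 72 other hairpins of the same panels. miR-23b was at -3.09, with 12 of all 95 pairs lower, and miR-24-2* against miR-24 at -1.74, while miR-27b was at 0.20. The sign of the arm difference of miR-23b was opposite in the comparisons, as was that of the median over all hairpins. With each panel centred separately, the median of the 5 pairs was 0.02 in the knockdown and 1.34 after NCS.

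**Figure D4:**
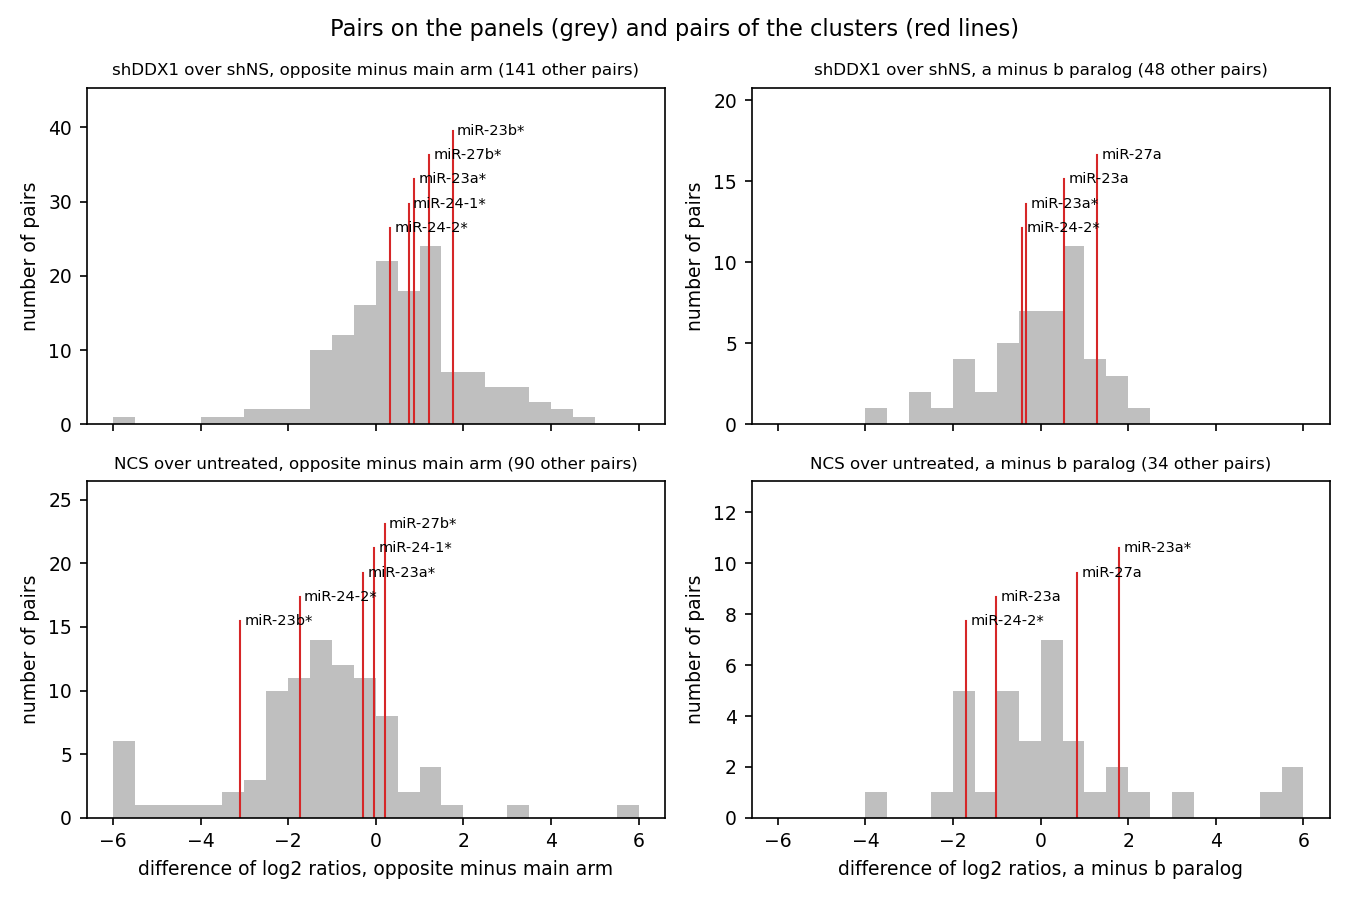
Number of pairs (vertical axis) by difference of log2 ratios (horizontal axis), for the opposite minus the main arm (left) and the a minus the b paralog (right) in shDDX1 over shNS (top) and NCS over untreated (bottom); grey bars are other pairs on the panels, with values beyond 6 in either direction in the end bars, and red lines are pairs of these clusters, each named by its first assay. The cluster pairs lie inside the spread of the other pairs, with miR-23b* at 1.75 in the upper and -3.09 in the lower left plot. The right plots also show miR-24-2* minus miR-24-1*, at -0.42 and -1.70, which is not an a and b pair.

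miR-23a belongs to a group of miRNAs known to target RUNX2, the factor that commits cells to bone, and the other 10 of that list were looked at beside it. In the knockdown 1 of the 10, miR-217 at a log2 ratio of -1.77, was at least 2-fold lower, beside 29.2% of panel I. Those at least 2-fold higher numbered 0, beside 2.75% of panel I, and the median was -0.46. After NCS 0 were at least 2-fold lower, beside 4.8% of panel I, and the median was 0.83. At least 2-fold higher were 4, beside 30.4% of panel I: miR-34c-5p at 3.64, miR-135a at 3.51, miR-338-3p at 2.84 and miR-218 at 1.96. miR-30c, the earliest read of the others, stood at 0.13 in the knockdown and -0.09 after NCS, close to miR-23a. All 11 are panel I assays, and the median of panel I was -0.42 in the knockdown and 0.31 after NCS. In untreated cells these 4 had read late, at Ct 31.1 to 34.6. In the knockdown the members other than miR-217 ran from -0.83 for miR-135a to 0.13 for miR-30c, and after NCS those other than the 4 ran from -0.31 for miR-204 to 0.90 for miR-133a.

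The mean profile of the 5 main arms over the 4 samples was set against those of 486 other miRNAs quantified in all of them, each taken relative to its own mean. The nearest by root mean square difference in log2 level were miR-374b at 0.051, miR-505 at 0.060, miR-532-5p at 0.078, miR-744 at 0.093 and miR-519c-5p at 0.10, against a median of 0.66. Among the members, miR-23a was at 0.18, miR-24 at 0.23 and miR-27a at 0.27 from that mean, miR-23b at 0.53 and miR-27b at 0.55. Each of these 5 is part of the mean, which draws it nearer than an outside miRNA. Other miRNAs nearer to the mean numbered 22 for miR-23a, 36 for miR-24 and 57 for miR-27a. They numbered 180 for miR-23b and 197 for miR-27b. The opposite arms ranged from 0.46 for miR-27b* to 2.43 for miR-23b*. The distance also counts the offset between the 2 pairs of samples: miR-23a*, at log2 ratios of 0.81 and -0.41, lay at 1.04, with 360 other miRNAs nearer.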

How the data were processed

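Mature miRNA was measured in 4 RNA samples with SYBR Green on a 2-panel plate set, per the labels. The authors deposited the quantification cycle per well. The instrument and its settings were not stated in those sources. The authors likewise deposited a table of shifted cycles, here taken on the log2 scale, and a table of the linear fold or ratio of each sample over its control. Both served as alternatives. Levels were taken as the average Ct of the 499 miRNA wells under Ct 35 in all 4 samples less the Ct of the assay, sample by sample, and a log2 ratio as the difference of such levels. Assays present on both panels were averaged. Differences between assays of one panel need no centring. The computation used Python 3.11.15, numpy 2.4.6 and pandas 2.3.3. A check on simulated data required right calls only with each panel centred, and not with the common centring used for the main values. Depth here is Ct: values near 35 or near a water well are less certain. Each group holds 1 sample, so no test was run. The members and lists, and the rule that named the assays (all matches, seed sharers, the RUNX2 list, the 5 nearest profiles), were chosen with earlier results of these data known. Opposite arms carry the 5p and main arms the 3p name in RefSeq. Alternatives were other centrings, Ct limits, fold thresholds, plate position and the deposited tables.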

Additional observations from a re-analysis of the deposited data

Results flagged for a closer look

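Water wells gave signal in the infected pair although they are named as blanks. The earliest of panel II read Ct 26.5 in shDDX1 and 26.6 in shNS cells, and none gave a Ct in NCS-treated or untreated cells. Of the 5 opposite arms on that panel, 2 read later than this well in shDDX1 and 3 in shNS cells. In shDDX1 cells miR-24-1*, at 26.47, was level with it, at 26.50. The earliest water well of panel I read 27.3 in shDDX1 and 27.8 in shNS cells, and the latest of the 5 main arms read 21.2 and 20.3. The part of this signal in the opposite-arm ratios was not tested.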

How the results depend on the processing

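No paired analysis was possible because a group is a single sample, and no replicate could be left out. Centring by panel and column class was chosen after the data were seen. The 10 assays gave 1 lower and 2 higher in shDDX1, and 4 lower and 0 higher after NCS. For the lower count in shDDX1, small RNA references, reference miRNAs and the 1.5-fold threshold gave 2, and centring per panel, calibrators, panel and column class, and the 4-fold threshold gave 0. For the higher count in shDDX1, median centring and subtraction of neighbouring wells gave 1, and small RNA references, reference miRNAs, no centring, per panel, calibrators, panel and column class, the authors' deposited normalized and fold tables and 4-fold gave 0. For the lower count after NCS, small RNA references, no centring, the authors' deposited normalized and fold tables and 4-fold gave 1, and reference miRNAs and calibrators gave 2. For the higher count after NCS, small RNA references and neighbouring wells gave 2, and reference miRNAs, no centring, panel and column class, the authors' deposited normalized and fold tables and 1.5-fold gave 1. Ct limits of 37, 32 and none left all 4 counts within 1.5 times, although a limit of 32 took the lower count after NCS to 3, without miR-23b*. The median arm difference in shDDX1, 0.88, was 0.021 per panel, -0.041 with calibrators, -0.51 with neighbouring wells and 0.22 by panel and column class. After NCS it was -0.29, and 1.34 per panel, 0.53 with calibrators, 1.07 with neighbouring wells and 0.96 by panel and column class. Both deposited tables gave -0.001 after NCS. These results depend on how panels are aligned, and the cause was not tested. The median paralog differences, 0.92 in shDDX1 and -0.09 after NCS, cannot move where a whole panel or column class is shifted; neighbouring wells gave 1.09 and -0.20. The -0.09 lies midway between -1.01 and 0.83. Of 200 single values under other settings, 70 moved by more than the repeat SD, or 120 by the SD without miR-423-5p. The 7 values past 2-fold under the common centring changed sign under none of the 10 other settings, which are not separate checks. Of these 7 values, miR-27b* after NCS came closest to 0, at -0.01 in both deposited tables. By contrast, miR-24 after NCS, at 0.21, was at -1.74 with neighbouring wells and -1.55 by panel and column class.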
